A study of Gallus gallus with 12 samples.

Results

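HOX genes encode homeodomain transcription factors that give cells along the head-to-tail axis of the embryo their positional identity. They lie in 4 clusters, HOXA, HOXB, HOXC and HOXD, and are numbered by paralogue group, so that genes with the same number in different clusters are related by descent. Within a cluster, low-numbered genes are switched on earlier and further towards the head, and high-numbered genes later and further towards the tail. Connective tissue and fat of adult mammals keep much of the HOX pattern of the body region they came from, and fat depots of different regions differ in it. The members were the genes whose symbol in the files is HOX, a cluster letter from A to D and a number, which selected 34 of 18332 genes, namely 11 of HOXA, 10 of HOXB, 6 of HOXC and 7 of HOXD.

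RNA-seq was done on abdominal fat and liver of female dwarf Xinghua chickens, a broiler strain of Gallus gallus with the dw gene, which the methods describe as a point mutation in exon 5 of the growth hormone receptor. All chickens were 8 weeks old by their labels, and the methods give this as the age at which the diets began. By the methods the tissues were taken at slaughter after the weeks of feeding, so the chickens were then older than the label. They received either a high-fat diet (HFD) or a normal diet (ND), with 3 chickens for each diet and tissue and 12 libraries in all, so both diets shared the strain, the sex and the mutation. The sequenced chickens were not a random sample, since the methods state that HFD chickens with a higher and ND chickens with a lower abdominal fat rate were taken. Chickens are named here by diet and by the replicate number in the labels, and although the methods say that both tissues were taken from the same chickens, the labels do not say that a number in fat and the same number in liver is one chicken. Tests between the tissues therefore treated the libraries as independent.

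Expression is given as FPKM, a fragment count divided by transcript length and by the sequencing yield of the library. It adjusts for length and yield, but not for the share of a library that its most abundant genes take. Comparisons between fat and liver therefore also depend on the scaling. The files list FPKM to 2 decimals and give no read counts. Between 12221 and 12492 genes reached 1 FPKM in the fat libraries and between 10799 and 11270 in the liver libraries, where the 10 highest genes took 25.6% to 30.1% of the summed FPKM, against 9.30% to 9.95% in fat. The labelled tissues matched their markers. The summed FPKM of 6 adipocyte markers was 12701 to 15611 in fat and 68.3 to 257.0 in liver, and that of 10 hepatocyte markers was 107308 to 129010 in liver and 681.2 to 5679 in fat, highest in ND chicken 2. In the fat of that chicken ALB was at 2887 FPKM and FGB at 146.6 FPKM. The other fat libraries had 0.86 to 70.0 FPKM of ALB and 0.24 to 3.18 FPKM of FGB. Whether this fat sample held some liver RNA was not tested.

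Abdominal fat expressed most of the HOXA and HOXB clusters and few genes of HOXC and HOXD. In fat, the mean of 23 of the 34 genes reached 1 FPKM, comprising 9 of 11 HOXA, 9 of 10 HOXB, 3 of 6 HOXC and 2 of 7 HOXD genes. Among all genes 12473 of 18332 did, a similar share, so the total of 23 is not particular to HOX genes. By position, these were 11 of the 15 genes of paralogue groups 1 to 5, all 8 genes of groups 6 to 8, and 4 of the 11 genes of groups 9 to 13. Some of these means rest on a few chickens, and 16 genes reached 1 FPKM in every fat library. The fat medians of HOXB9, HOXA10, HOXC9, HOXC8 and HOXD3 were below that level, at 0.295, 0.57, 0.59, 0.88 and 0.97 FPKM. The level by paralogue group, summed over the clusters, was 14.2 ± 2.28 FPKM (SD, n = 6) in group 2 and 21.1 ± 2.64 in group 3. In group 4 it was 117.0 ± 11.3, of which HOXB4 alone had a mean of 102.8 FPKM, so that this peak is mostly 1 gene. It was 30.3 ± 8.36 in group 5, 39.3 ± 20.6 in group 6 and 7.10 ± 8.05 in group 9. Group 11, whose only listed member is HOXA11, was at 0.16 ± 0.23.

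**Figure D1:**
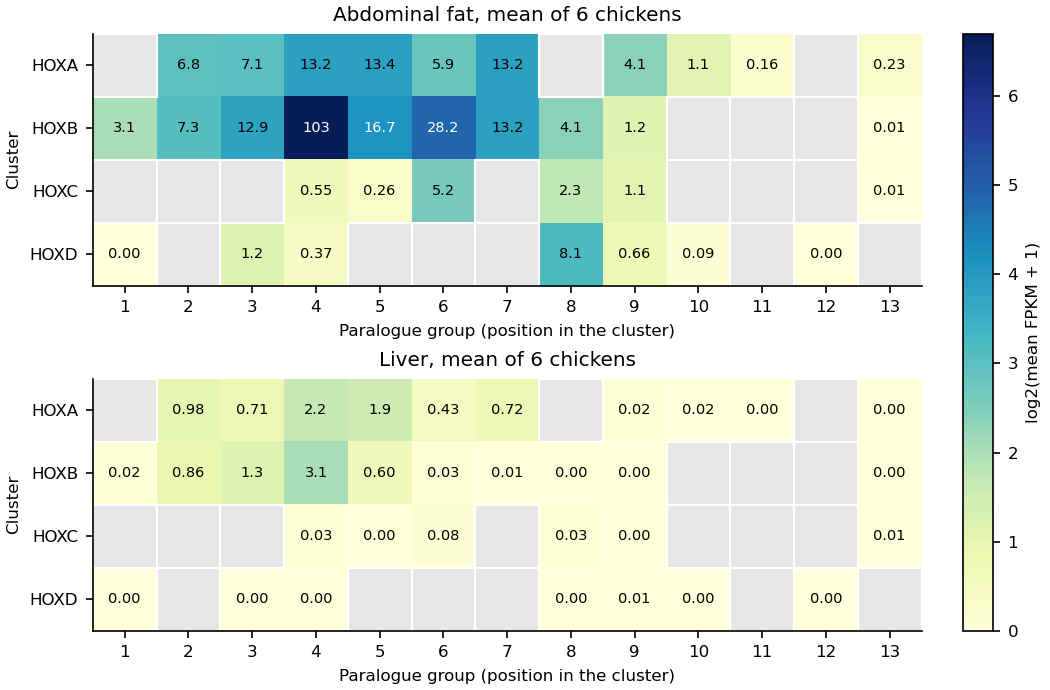
Mean FPKM of each HOX gene in abdominal fat (top) and liver (bottom), each over 6 chickens, with clusters as rows and paralogue groups as columns. Colour is log2(mean FPKM + 1), the printed number is the mean FPKM, and a grey cell marks a position for which no gene matched the rule or is shown. HOXB4 is the darkest cell of both tissues, at 102.8 FPKM in fat and 3.09 FPKM in liver.

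HOXB4, known in mice and humans for its effect on blood stem cells, was the most abundant HOX transcript in 6 of 6 fat libraries and in 6 of 6 liver libraries. Its level in fat was 100.6, 112.1 and 109.0 FPKM in HFD chickens 1 to 3 and 87.4, 88.8 and 119.2 FPKM in ND chickens 1 to 3. The lowest of these values was above the highest value of any other HOX gene in fat, 48.6 FPKM for HOXB6. HOXB4 alone made up 30.9% to 47.5% of the summed HOX FPKM of a fat library, and it ranked 702 by mean FPKM among all genes in fat, against 8502 in liver.

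Below HOXB4 the order of mean levels in fat was HOXB6, HOXB5, HOXA5, HOXA4, HOXA7, HOXB7 and HOXB3, then HOXD8, HOXB2, HOXA3, HOXA2, HOXA6, HOXC6, HOXB8, HOXA9, HOXB1, HOXC8, HOXB9, HOXD3, HOXA10 and HOXC9. Among these genes, each gene's range over the 6 chickens overlapped that of the next gene in the order, so that neighbours did not differ beyond their spread, although HOXB6 was above HOXB5 in 6 of 6 chickens. HOXA5, HOXA4, HOXA7 and HOXB7 lay within 13.2 to 13.4 FPKM by their means. The other 11 genes, HOXA11, HOXA13, HOXB13, HOXC4, HOXC5, HOXC13, HOXD1, HOXD4, HOXD9, HOXD10 and HOXD12, reached at most 1.94 FPKM in any fat library and 0.06 FPKM in any liver library. HOXD12 was listed at 0 in all 12 libraries.

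The genes of groups 1 to 3, which pattern the hindbrain, pharyngeal arches and neck, varied 1.4-fold to 4.3-fold between the 6 fat libraries in the genes given here. HOXB1, which marks a single segment of the hindbrain, was at 3.92, 1.88 and 1.93 FPKM in the fat of HFD chickens 1 to 3 and 2.65, 3.30 and 4.76 FPKM in ND chickens 1 to 3. HOXA2, the selector gene of the second pharyngeal arch, was at 7.85, 5.33 and 4.84 FPKM under HFD and 8.34, 7.99 and 6.61 FPKM under ND. For all of these the values of the diets overlapped. HOXB2 was at 8.09, 6.20 and 6.14 FPKM under HFD and 6.86, 7.91 and 8.83 FPKM under ND. HOXA3, needed for the thymus and parathyroid in mice, was at 7.83, 7.83 and 5.26 FPKM under HFD and 6.34, 7.67 and 7.45 FPKM under ND. HOXB3 was at 14.98, 9.11 and 10.97 FPKM under HFD and 15.7, 15.1 and 11.2 FPKM under ND. HOXD3 was the lowest expressed of the named group 3 genes, at 0.76, 2.35 and 0.92 FPKM under HFD and 0.55, 1.02 and 1.78 FPKM under ND.

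Groups 4 and 5 are those of the neck and the front of the trunk. HOXA4 was at 16.7, 9.11 and 12.5 FPKM in the fat of HFD chickens 1 to 3 and 14.4, 14.9 and 11.8 FPKM in ND chickens 1 to 3. HOXA5, which patterns the neck-to-thorax border and the lung in mice, was at 14.2, 10.3 and 10.9 FPKM under HFD and 15.4, 14.3 and 15.1 FPKM under ND. HOXA5 was thus higher in each ND chicken than in every HFD chicken, by a narrow margin. HOXB5 was at 17.03, 15.65 and 10.97 FPKM under HFD and 11.9, 14.3 and 30.2 FPKM under ND, with ND chicken 3 well above the other 5.

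Liver expressed few HOX genes, mainly of the low-numbered groups. There, the mean of 4 of the 34 genes reached 1 FPKM, all of them in groups 3 to 5, against 11181 of all 18332 genes. HOXB4 was at 2.39, 3.73 and 2.59 FPKM in the HFD livers and 3.57, 3.94 and 2.33 FPKM in the ND livers. HOXA4 was at 2.06, 2.31 and 1.69 FPKM under HFD and 2.91, 2.39 and 1.81 FPKM under ND. HOXA5 was at 1.76, 2.49 and 1.47 FPKM under HFD and 2.55, 1.78 and 1.26 FPKM under ND. The livers of the diets overlapped for these genes. HOXB3 was at 1.45, 1.01 and 0.86 FPKM under HFD and 1.76, 1.65 and 0.84 FPKM under ND. HOXA2, HOXB2, HOXA7, HOXA3, HOXB5 and HOXA6 followed with means from 0.98 down to 0.43 FPKM, and 11 genes in all were above 0 in all 6 livers. Another 11 genes were listed at 0 in all 6 livers, among them HOXB8, HOXB9, HOXC9 and HOXD8, which had means of 4.14, 1.25, 1.08 and 8.11 FPKM in fat. Genes used by every cell were above 0 throughout, the lowest value of 8 such genes being 1.32 FPKM. That was bound to be so, and it says nothing of how well genes of very low level were detected.

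The share of the clusters differed between the tissues. HOXB genes held 62.3% to 73.8% of the summed HOX FPKM in the fat libraries and 42.6% to 47.6% in the livers, without overlap. HOXA genes held 22.1% to 27.4% in fat and 51.4% to 55.8% in liver. Genes of groups 6 to 13 held 19.1% to 46.0% in fat and 8.57% to 13.997% in liver. The whole HOX sum was 223.0 to 386.1 FPKM in fat and 10.04 to 15.45 FPKM in liver.

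Fat and liver were compared with limma on log2(FPKM + 1), a scale that understates the differences of low genes, with p-values adjusted by the Benjamini-Hochberg method over 15442 genes. The mean over the 12 libraries had to reach 0.1 FPKM, which 28 of the 34 HOX genes met. A gene that met it through fat alone could only lean towards fat, whether or not it passed the threshold, so the count that follows is a description. Of the 28, 24 were higher in fat and 0 in liver, with a threshold of 0.05 on the adjusted p. Among all genes 62.4% were called higher in fat, and the median of all genes was 0.52 higher in fat on the log2 scale, so that most genes leaned towards fat. With the libraries brought to one distribution by quantile normalization, 22 HOX genes and 36.7% of all genes were called higher in fat. The calls over all genes were then 5673 higher in fat and 5376 higher in liver, against 9634 and 2528 with FPKM as deposited. The HOX genes had a median log2 difference of 1.99, from 0.26 to 4.73, and of 1.49, from 0.19 to 4.41, after quantile normalization, and none turned towards liver under any of the scalings. Genes that met the limit through fat alone could hardly turn, so this too is a description. All 6 fat values lay above all 6 liver values for 21 of the 28 HOX genes tested, against 50.3% of all genes tested.

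**Figure D2:**
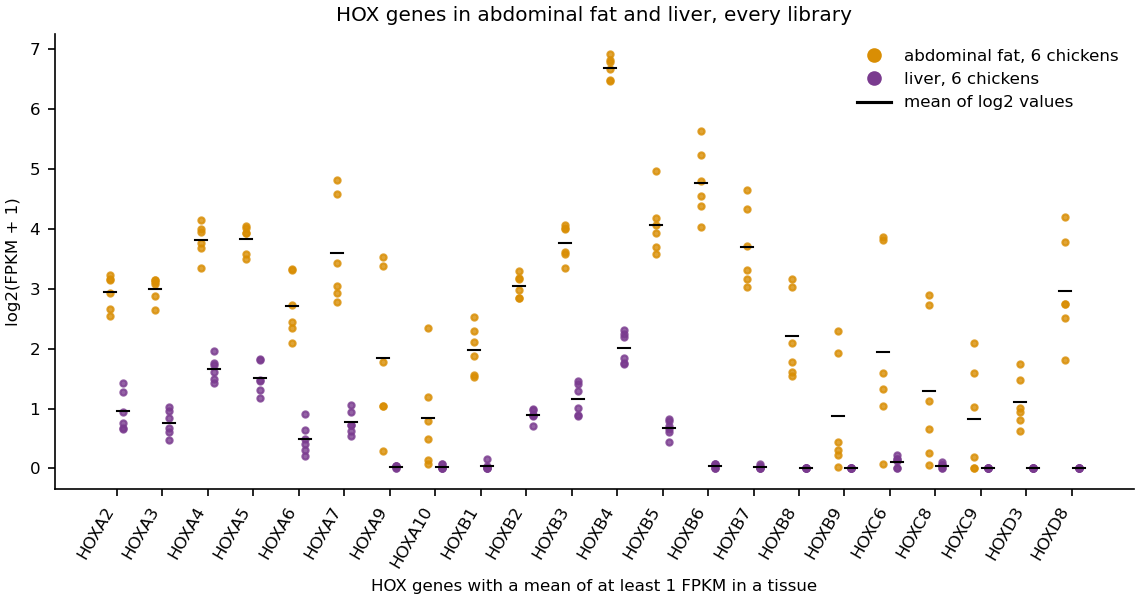
Every library's log2(FPKM + 1) for 22 HOX genes whose mean reached 1 FPKM in a tissue, with abdominal fat in orange, liver in purple, 6 chickens each, and the mean of the log2 values as a black line. Fat lies above liver without overlap except for HOXA10, HOXC6, HOXC8 and HOXC9, where the lowest fat libraries reach down to the liver values.

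On this scale the largest differences were in the middle of the HOXB cluster. HOXB6 was 4.73 higher in fat on the log2 scale (SE 0.23, adjusted p = 4.69e-09), HOXB4 was 4.68 higher (SE 0.13, adjusted p = 9.79e-11), HOXB7 was 3.68 higher (SE 0.26, adjusted p = 1.46e-07) and HOXB5 was 3.39 higher (SE 0.20, adjusted p = 2.86e-08). With a pseudocount of 0.1 FPKM the order was HOXB6, HOXB7, HOXD8, HOXB8 and HOXB4, at 7.75, 6.75, 6.07, 5.17 and 5.03 on that log2 scale, so that the rank of HOXB4 and HOXB5 depends on the pseudocount. HOXB6 and HOXB7 were at 0 to 0.05 FPKM in liver. They met the limit of 0.1 FPKM through fat alone, so their p-values are a description too. HOXB4 and HOXB5 were lower in liver by 33.3-fold and 27.8-fold in the ratio of means but were present in every liver. Within HOXA, HOXA5 was 2.32 higher in fat (SE 0.13, adjusted p = 2.11e-08) and HOXA4 was 2.14 higher (SE 0.14, adjusted p = 7.60e-08), while HOXA7 was 2.82 higher (SE 0.35, adjusted p = 1.66e-05). The exact two-sided permutation test of 6 against 6 libraries gave p = 0.00216, the smallest it allows, for 19 of the 23 genes whose mean reached 1 FPKM. That p is reached when the tissues do not overlap, and fat lay wholly above liver for 50.3% of all genes tested. All 23 genes reached 1 FPKM in fat, so the 19 are a description, like the count of calls.

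Of the calls, those of HOXA10 and HOXC8 were the least firm. HOXA10 was 0.82 higher in fat (SE 0.33, adjusted p = 0.0398, exact permutation p = 0.00649) and HOXC8 1.24 higher (SE 0.47, adjusted p = 0.0314, exact permutation p = 0.0108). Without the fat library of ND chicken 3 their adjusted p-values were 0.0922 and 0.0709, above the threshold, as they also were without any single one of the 6 liver libraries (0.0515 to 0.0680). HOXA10 passed the threshold no more without the fat library of ND chicken 2 either (adjusted p = 0.0682). HOXC9 was 0.82 higher in fat (SE 0.35, adjusted p = 0.0502, exact permutation p = 0.0606) and HOXB9 0.87 higher (SE 0.39, adjusted p = 0.0571, exact permutation p = 0.00216). HOXA13 and HOXC5 were the other tested genes without a call. HOXA10, HOXC8, HOXC9 and HOXB9 met the limit of 0.1 FPKM through fat alone, so their p-values are a description. HOXB9 and HOXC9 were listed at 0 in all 6 livers, so any fat value above 0 lay above liver.

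Marker sums of adipocytes, stroma, vessels and leukocytes were higher in fat than in liver, and that of hepatocytes was higher in liver. The leukocyte sum was mostly CD74, and CD3E, of T cells, ran from 6.19 to 16.2 FPKM in fat and from 9.26 to 18.5 FPKM in liver. In liver the summed FPKM of stromal markers was 2.39%, of endothelial markers 7.97%, of smooth muscle markers 18.0% and of leukocyte markers 24.5% of the mean in fat. HOXA4, HOXA2 and HOXA5 in liver were at 16.6%, 14.4% and 14.1% of their mean in fat, HOXB4 at 3.01% and HOXB6 at 0.0886%. HOX genes thus did not share one ratio between the tissues. The part of these cell types in the differences was not tested, and in bulk tissue fewer cells of a type and less RNA per cell cannot be told apart.

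HOX genes of groups 6 to 13 varied strongly among the 6 fat samples, and the same pair of chickens, 1 from each diet, stood highest. HOXA7 was at 6.58, 22.8 and 7.25 FPKM in the fat of HFD chickens 1 to 3 and 5.87, 9.76 and 26.98 FPKM in ND chickens 1 to 3. HFD chicken 2 and ND chicken 3 were thus each more than 2 times above the next chicken. HOXA6, HOXB6 and HOXB7 had the same pair highest, with smaller steps. HOXA6 was at 3.27, 8.99 and 4.08 FPKM under HFD and 4.43, 5.62 and 8.97 FPKM under ND. HOXB6 was at 22.4, 36.5 and 15.4 FPKM under HFD and 19.8, 26.8 and 48.6 FPKM under ND. HOXB7 was at 7.99, 19.1 and 12.2 FPKM under HFD and 7.16, 8.92 and 24.0 FPKM under ND.

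By the summed FPKM of a cluster, the contrast was widest in HOXC, whose middle genes pattern the thoracic region in mice. HOXC6 was at 0.05, 12.99 and 1.51 FPKM under HFD and 1.06, 2.02 and 13.5 FPKM under ND, a 270-fold range. That ratio rests on the 0.05 FPKM of HFD chicken 1, which lies near the last decimal of the files, so its size is uncertain. HOXC8 was at 0.04, 5.63 and 0.19 FPKM under HFD and 0.58, 1.18 and 6.41 FPKM under ND. HOXC9 was at 0, 3.27 and 0 FPKM under HFD and 0.14, 1.04 and 2.01 FPKM under ND. In HFD chickens 1 and 3 these genes were close to the liver values of 0 to 0.17 FPKM, except HOXC6 in chicken 3. The summed HOXC FPKM was 23.0 and 23.7 in the high pair and 0.55 to 5.0 in the other 4 chickens.

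HOXD8, HOXB8, HOXA9 and HOXB9 had the same pair highest, while HOXD9 was high in HFD chicken 2 alone, at 1.94 FPKM against 0.21 to 0.68 FPKM in the other 5. The most abundant HOXD gene, HOXD8, was at 2.51, 17.4 and 5.68 FPKM under HFD and 5.72, 4.69 and 12.7 FPKM under ND. HOXB8 was at 3.26, 7.99 and 2.41 FPKM under HFD and 1.92, 2.04 and 7.20 FPKM under ND. HOXA9, a gene of blood progenitors and of the trunk, was at 0.23, 10.5 and 1.06 FPKM under HFD and 1.06, 2.42 and 9.42 FPKM under ND. Their high values were again those of HFD chicken 2 and ND chicken 3. HOXB9 was at 0.02, 3.89 and 0.24 FPKM under HFD and 0.17, 0.35 and 2.82 FPKM under ND. HOXA10, of the lumbar region and the hind limb, was at 0.10, 4.09 and 0.41 FPKM under HFD and 0.05, 0.73 and 1.29 FPKM under ND. Beyond group 10 the levels were low, with HOXA11 at 0.58 FPKM and HOXA13 at 0.87 FPKM in HFD chicken 2 and at most 0.23 FPKM in the other 5 chickens.

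**Figure D3:**
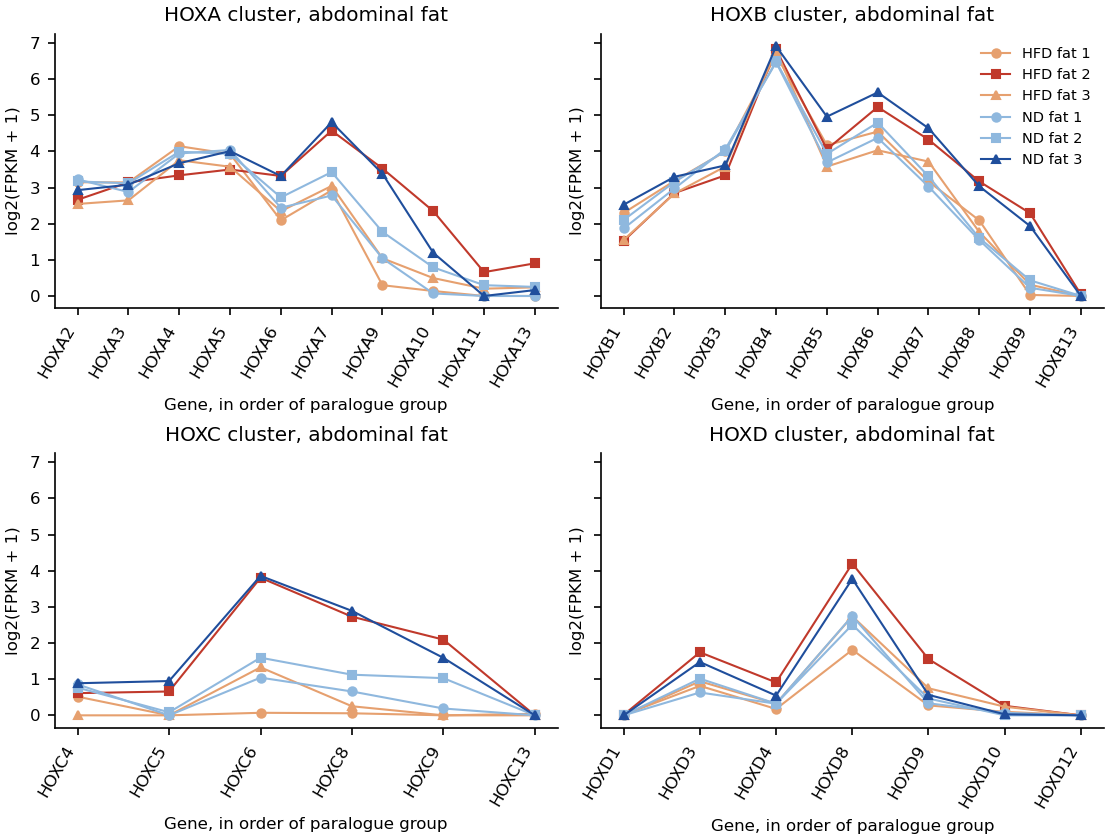
log2(FPKM + 1) of the genes of each HOX cluster in the 6 abdominal fat libraries, ordered by paralogue group, with HFD chickens in reds and ND chickens in blues. HFD chicken 2 and ND chicken 3 are drawn darker because they stood highest in groups 6 to 8, while the 6 lines run close together over HOXA2 to HOXA5 and HOXB1 to HOXB4.

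Summed over genes, groups 1 to 5 stayed between 174.7 and 221.7 FPKM in all 6 fat libraries. Groups 6 to 8 came to 46.1, 131.3 and 48.6 FPKM in HFD chickens 1 to 3 and 46.5, 61.0 and 148.3 FPKM in ND chickens 1 to 3. Groups 9 to 13 came to 0.66, 25.4 and 2.90 FPKM under HFD and 1.73, 5.34 and 16.2 FPKM under ND. The highest value divided by the lowest in fat had a median of 1.72 over the 11 named genes of groups 1 to 5, up to 4.27 for HOXD3. It had a median of 6.91 over the 11 named genes of groups 6 to 13 that were above 0 in every chicken. HOXC9, at 0 in 2 chickens and 3.27 FPKM in another, has no such ratio and is left out of that median.

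HFD chicken 2 and ND chicken 3 were singled out after these values had been seen, so their order is a description without a test. They were the highest pair of the 6 fat libraries for 12 of the 15 genes of groups 6 to 13 with a fat mean of at least 0.1 FPKM, the others being HOXA11, HOXA13 and HOXD9. For groups 6 to 8 this held for 8 of 8 genes, and for groups 1 to 5 for 4 of 14, HOXB4, HOXC5, HOXD3 and HOXD4. Over all 15403 genes with that mean in fat the pair was highest for 5.25%. Both were at least 2 times above the next chicken for 8 of 29 HOX genes and for 0.305% of all genes. HOXA4 ran the other way, the pair holding the lowest values of the 6.

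Other transcription factors of body position were looked at in the same chickens. Of 32 regional mesoderm factors that reached a mean of 0.1 FPKM in fat, the pair was highest for 8, against 5.25% of all genes. EN1, a homeodomain factor of the limb and of the trunk dermis, was at 0.46, 15.2 and 0.97 FPKM in the fat of HFD chickens 1 to 3 and 0.87, 4.54 and 12.6 FPKM in ND chickens 1 to 3. PITX1, the selector of hind limb identity, was at 0.17, 14.5 and 1.59 FPKM under HFD and 0.58, 2.82 and 9.98 FPKM under ND. TBX5, the forelimb and heart factor, was at 0, 1.44 and 0.02 FPKM under HFD and 0.13, 0.48 and 2.53 FPKM under ND. All of these had their highest values in the pair that was highest for the HOX genes of groups 6 to 8. Other members of the list had the pair lowest, among them OSR1, TBX18 and SIX2. OSR1 was at 12.5 FPKM in HFD chicken 2 and 10.2 FPKM in ND chicken 3, against 20.4 to 22.7 FPKM in the other fat libraries. The list as a whole thus did not follow the pair in one direction. Further genes were picked because their values stood out. MSX2, a homeodomain factor of limb and skin, was at 0.31, 3.94 and 0.45 FPKM under HFD and 0.78, 0.92 and 4.14 FPKM under ND. BARX1, a homeodomain factor of stomach mesenchyme, was lowest in the pair, at 24.8, 1.98 and 25.8 FPKM under HFD and 21.3, 14.1 and 3.04 FPKM under ND. PMEL, a melanocyte gene, was at 0.14, 3.46 and 0.22 FPKM under HFD and 0.14, 0 and 2.91 FPKM under ND, and TYRP1 and MLANA, of the same cells, were also highest in the pair, TYRP1 at 1.05 and 1.22 FPKM against 0 to 0.08 FPKM and MLANA at 0.69 and 0.38 FPKM against 0 to 0.16 FPKM. The melanocyte genes DCT, TYR and MITF did not have the pair highest, so that 3 of the 6 looked at did.

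**Figure D4:**
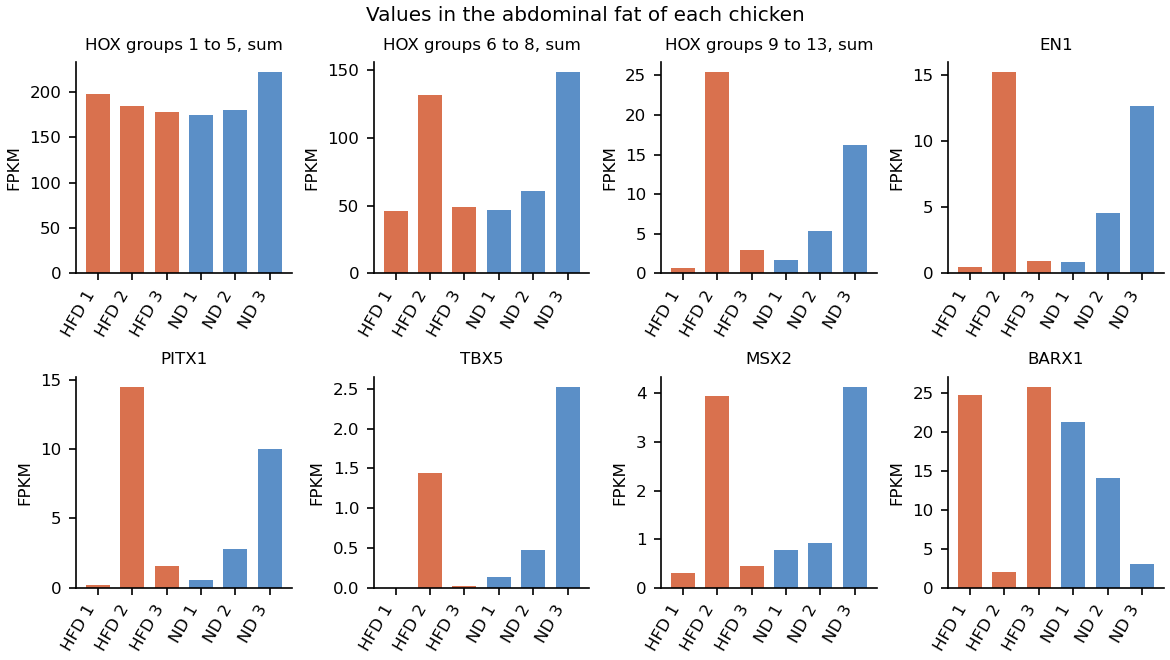
FPKM in the abdominal fat of each chicken, HFD in red and ND in blue, for the summed HOX genes of groups 1 to 5, 6 to 8 and 9 to 13 and for 5 other position genes, each panel on its own axis from 0. HFD chicken 2 and ND chicken 3 have the tallest bars except for BARX1, where theirs are the lowest, and except for groups 1 to 5, which vary least.

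Of the 11 marker sums of cell types, 0 had that pair highest, but the list held no melanocytes, whose genes PMEL, TYRP1 and MLANA did. Among all genes the pair was highest for only 5.25%, so nothing is read from the 0 of 11. The adipocyte sum was 14065 FPKM in HFD chicken 2 and 15488 in ND chicken 3, within the range of the other 4 chickens, 12701 to 15611. Stromal markers came to 9529 and 7035 FPKM, the former the highest of the 6 and the latter the second lowest. Endothelial markers came to 466.4 and 789.4 FPKM, smooth muscle markers to 316.6 and 361.5 FPKM, and mesothelial markers to 10.7 and 14.4 FPKM. Skeletal muscle markers were highest in HFD chicken 1, at 321.9 FPKM, against 58.1 and 51.2 FPKM in the pair. The part of cell composition or of the exact place of sampling in the difference between chickens was not tested.

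Diet was the question of the series, and no HOX gene passed the test for it in either tissue. In fat, 29 HOX genes met the limit of 0.1 FPKM and 0 passed the same threshold (limma, 3 against 3 chickens), the lowest adjusted p being 0.765. Among all genes 0.00649% were called, which is 1 of 15412. At an unadjusted p under 0.05 there were 2 HOX genes, HOXA5 and HOXC4, against 6.31% of all genes. The difference, HFD minus ND, was -0.33 on the log2 scale for HOXA5 (SE 0.14) and -0.46 for HOXC4 (SE 0.18), both with an adjusted p of 0.765 by limma. HOXC4 was at 0.43, 0.53 and 0 FPKM in HFD chickens 1 to 3 and 0.81, 0.70 and 0.85 FPKM in ND chickens 1 to 3, so its diets did not overlap. The diets were also apart for HOXA5, with ND higher, so that 2 of the 29 HOX genes tested had no overlap, against 13.5% of all genes tested in fat. HOXD10, below the limit of 0.1 FPKM and not tested, had no overlap either, with HFD higher at 0.07 to 0.20 against 0 to 0.05 FPKM.

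The precision of these differences depended on the position. Over the 14 tested genes of groups 1 to 5 the SE of the log2 diet difference in fat had a median of 0.21, and over the 15 of groups 6 to 13 it had a median of 0.60 and reached 1.10 for HOXC6. HOXB4 was 0.14 higher under HFD (SE 0.14) and HOXC6 0.43 lower (SE 1.10), neither past the threshold. Differences within these errors were not detectable with 3 chickens a diet, which does not show that the diets were alike. With HFD chicken 2 and ND chicken 3 left out, a choice made after seeing the data, 0 HOX genes and 0 of all genes were called, so that this fit says nothing particular of the HOX genes.

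**Figure D5:**
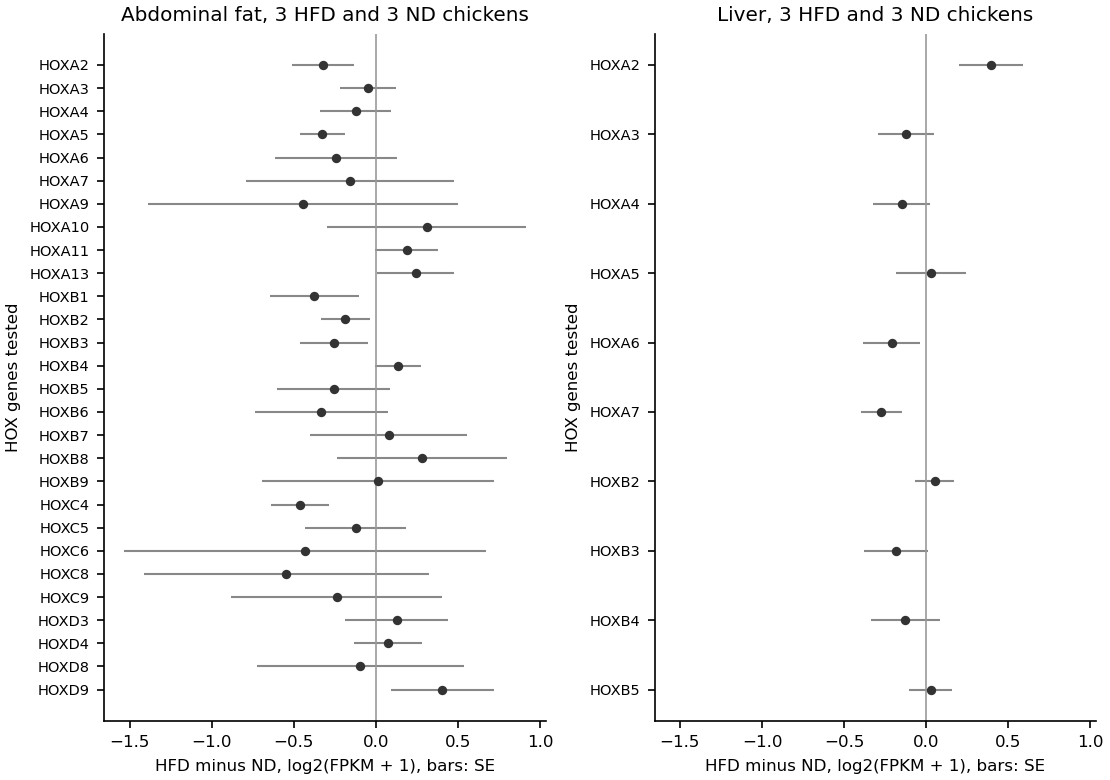
Difference between HFD and ND in log2(FPKM + 1) for the HOX genes tested in abdominal fat (left, 28 genes) and liver (right, 10 genes), with 3 chickens for each diet; points are limma estimates and bars 1 SE. None of these genes passed the threshold, and the bars are longest for HOXC6, HOXA9 and HOXC8 in fat.

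In liver, 11 HOX genes were tested and 0 were called, the lowest adjusted p being 0.380 for HOXA7 (limma), against 0.0% of 14510 genes. At an unadjusted p under 0.05 there were 0 HOX genes, where 13.9% of all genes had such a p. HOXA7 was at 0.65, 0.46 and 0.55 FPKM in the HFD livers and 0.91, 1.08 and 0.66 FPKM in the ND livers, a log2 difference of -0.27 (SE 0.12). HOXA7 was thus higher in each ND liver than in every HFD liver. Such a lack of overlap was found for 2 HOX genes in liver, where 20.1% of the genes tested had no overlap. HOXA2 had the largest difference in the other direction, 0.39 higher under HFD (SE 0.19), at 1.69, 1.41 and 0.70 FPKM against 0.60, 0.92 and 0.58 FPKM.

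The diet difference in fat was also compared with that in liver, in one limma fit of the 12 libraries. Of 28 HOX genes 0 differed, with a lowest adjusted p of 0.364, where 0.00648% of all genes were called. HOXA2 and HOXC4, 2 of the 28, had an unadjusted p under 0.05, with fat minus liver differences of -0.72 (SE 0.29) and -0.49 (SE 0.19). The share of all genes at that p is not given here, so nothing particular to HOX genes is read from these 2. HOXC4 was at 0 to 0.06 FPKM in liver, so its value rests almost wholly on fat.

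HOX proteins bind DNA together with TALE homeodomain cofactors of the PBX and MEIS families, and these were expressed in both tissues. Of 7 tested cofactors 6 were higher in fat and 0 in liver, and 4 and 1 after quantile normalization, to be read against 62.4% and 36.7% of all genes higher in fat. The same background holds for the counts of the other lists that follow, and nothing particular to a list is read from them. MEIS1 was at 26.4 ± 6.10 FPKM in fat and 3.62 ± 1.23 FPKM in liver (SD, n = 6), a log2 difference of 2.58, and MEIS2 was at 27.5 ± 2.83 and 3.86 ± 0.56 FPKM, a log2 difference of 2.55. The pair of chickens with high HOX levels was highest for 0 of the 7 cofactors, against 5.25% of all genes, so nothing particular to the cofactors is read from it. MEIS2 was at 31.4 and 28.5 FPKM in HFD chicken 2 and ND chicken 3 and at 23.0 to 28.8 FPKM in the other 4.

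Polycomb complexes keep HOX genes silent, and MLL complexes keep them active. Of 19 tested Polycomb genes 16 were higher in fat and 1 in liver, and 12 and 3 after quantile normalization. PCGF3, PCGF2, PCGF5 and JARID2 had the largest log2 differences, 2.05, 1.83, 1.71 and 1.51. Of 7 genes of MLL complexes and H3K27 demethylases 7 were higher in fat, but 3 were and 1 was higher in liver after quantile normalization. DPY30 had the largest difference of these, 1.25, and KMT2A followed with 1.09. EZH2, a methyltransferase of Polycomb, was at 6.18 ± 1.41 FPKM in fat and 1.84 ± 0.52 FPKM in liver. Its relative EZH1 was more abundant, at 22.7 ± 5.65 FPKM in fat and 8.70 ± 0.87 FPKM in liver.

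Retinoic acid induces the low-numbered HOX genes in embryos. Of 12 tested genes of its enzymes and receptors 7 were higher in fat and 3 in liver, and 6 and 4 after quantile normalization. ALDH1A3, which makes retinoic acid, was at 21.9 ± 11.4 FPKM in fat and 0.61 ± 0.22 FPKM in liver, a log2 difference of 3.67. ALDH1A1, another such enzyme, was lower in fat, at 37.6 ± 16.7 against 241.1 ± 84.7 FPKM, a log2 difference of -2.69. The receptor RARB was 2.13 and the binding protein CRABP2 1.97 higher in fat. The same pair of chickens was highest in fat for 3 of the 12 genes of this list with a fat mean of at least 0.1 FPKM, against 5.25% of all genes. CRABP2 was among these, at 9.71 FPKM in HFD chicken 2 and 4.28 FPKM in ND chicken 3 against 1.61 to 3.16 FPKM in the others.

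Genes that flank the HOX clusters or are of other homeodomain families were compared alongside. Of 14 tested neighbours of the clusters 14 were higher in fat, and 11 with 1 higher in liver after quantile normalization, with SKAP2, next to HOXA, at 70.3 ± 8.63 FPKM in fat and 10.7 ± 1.97 FPKM in liver. The pair of chickens was highest for 0 of these 14, against 5.25% of all genes, so nothing particular to the neighbours is read from it. The ParaHox genes and CDX genes, relatives of the HOX genes active in the gut, were at or near 0, and PDX1, the only one tested, was listed at 0 in all fat libraries and at a mean of 0.22 FPKM in liver. Of 29 tested regional mesoderm factors 22 were higher in fat and 4 in liver, and 19 and 5 after quantile normalization, led by MEOX2, OSR2, PRRX1 and TWIST2 with log2 differences of 5.62, 5.30, 5.14 and 4.86. Of 12 hepatocyte factors 11 were higher in liver, led by FOXA1 at 32.3 ± 8.44 FPKM against 0.17 ± 0.37 FPKM in fat. Of the tested cofactors, Polycomb, MLL and retinoic acid genes, neighbours, ParaHox genes, mesoderm factors and hepatocyte factors, 0 were called for diet in fat, in liver or in the comparison of both.

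Values of neighbouring HOX genes may share reads. In the RefSeq annotation of the assembly GRCg7b, which may not be the build of the files, 30 of the 34 symbols were found, on chromosomes 2 (HOXA), 27 (HOXB), 34 (HOXC) and 7 (HOXD). The gene models of 12 of them overlap another HOX gene, namely HOXA3 with HOXA4, HOXA5 and HOXA6, HOXA9 with HOXA10, HOXB3 with HOXB4, HOXB5 and HOXB6, HOXB5 with HOXB6, and HOXD3 with HOXD4. How the authors' tool divided reads between such genes cannot be seen from the files, so the levels of these 12 are uncertain to that extent. A gene outside the rule, listed as RP11-834C11.12 and named HOXC10 in RefSeq, was at 0, 0.92 and 0.17 FPKM in the fat of HFD chickens 1 to 3, 0.03, 0.17 and 0.41 FPKM in ND chickens 1 to 3, and 0 in all livers.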

How the data were processed

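The authors sequenced 12 libraries, 1 for each tissue of each chicken, on a BGISEQ-500 instrument. The submitters' processing notes name HISAT2 2.0.4, Bowtie2 2.2.5 and RSEM 1.2.12, and the genome build is not given in the sources used here. The authors deposited FPKM values per gene, rounded to 2 decimals, without counts, so count tests were not used. The relative FPKM worth of a single read, estimated from values within 15% of the minimum of 258 genes, differed by at most 1.02-fold between libraries. That window itself limits how far the estimates could differ, so they do not show that the depth was alike. The depth itself is not given in the files. Values were tested as log2(FPKM + 1) with limma 3.58.1 in R 4.3.3 (eBayes with trend, two-sided, Benjamini-Hochberg over all genes tested, threshold 0.05 on the adjusted p), for genes whose mean over the libraries of a fit reached 0.1 FPKM. The fits had group means and no block, with each tissue fitted apart for diet, and were tested on simulated data. The 6 against 6 values of single genes were compared by an exact permutation test (SciPy 1.17.1). Values of each library were given for HOX genes whose mean reached 1 FPKM in a tissue, and up to 4 called genes with the largest difference were named from each other list. The members and lists were chosen with earlier results of these data known. Alternatives were another pseudocount, filters, scalings, sample weights, blocks and leaving out libraries. Some genes that the rules select are counted but their values are not reported here. Protein and promoter sequences were not used here.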

Additional observations from a re-analysis of the deposited data

Results flagged for a closer look

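In the fat libraries 4 HOX genes had 1 chicken far from the other 5, by Dixon's test at the 95% level in 29 genes tested. Chance flags about 1 in 20 genes if the values are normally distributed, which FPKM need not be, and the genes are not independent. The share of all genes so flagged is not given here, so nothing particular to HOX genes is read from these 4. HOXB5 was at 30.15 FPKM in ND chicken 3, against 17.03 FPKM in the next chicken. HOXA10 was at 4.09 FPKM in HFD chicken 2 (next 1.29), HOXD9 at 1.94 FPKM (next 0.68) and HOXA13 at 0.87 FPKM (next 0.19), each in the same chicken. Genes with high values in both HFD chicken 2 and ND chicken 3, such as HOXC6 and HOXA7, are not found by that test, which looks for 1 sample at a time.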

How the results depend on the processing

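The 24 HOX genes called higher in fat stayed between 18 (HFD samples alone) and 27 across all alternatives except the strict call, which asks for an absolute log2 difference of 1 or more at an adjusted p not above 0.001 and left 17. With single libraries left out the count was 22 to 27, and 0 were higher in liver throughout. For the 24 HOX genes whose values are given, 509 of 547 alternative tissue values kept their side of the threshold, 25 lost the call and 13 gained it, and none changed sign. Genes that met the limit through fat alone could hardly change sign or be higher in liver. The lost calls were those of HOXA10, HOXC8 and, with HFD samples alone, HOXA9, HOXC4 and HOXC6. Over all genes the calls higher in fat and in liver were 4498 and 1273 with the strict call, 5673 and 5376 with quantile normalization, 6210 and 4836 with upper quartile scaling, and 5726 and 5395 with quantile normalization and a pseudocount of 0.1, a pair of choices made after seeing the data. With single libraries left out they were 9386 to 9600 and 2406 to 2501. No HOX gene was called for diet under any alternative; 40 of 383 alternative diet differences in fat and 17 of 158 in liver changed sign, never past the threshold. Over all genes the diet in fat, 1 call, gave 2 calls with a pseudocount of 0.1, with and without quantile normalization, and in one fit of the 12 samples, and 0 with the strict call, the replicate block, or without HFD chicken 2 and ND chicken 3 together; single libraries left out gave 0 to 4. The diet in liver, 0 calls, gave 4 calls with a pseudocount of 0.1, with and without quantile normalization, 6 with a filter at 1 FPKM, 12 with sample weights and 111 in one fit of the 12 samples; single libraries left out gave 0 to 1. The HOX genes expressed in fat, 23 at a limit of 1 FPKM on the mean, were 25 at 0.5 FPKM and 19 at 2 FPKM. They were 16 with at least 1 FPKM asked of every fat library, and 20 to 23 with single libraries left out. The HOX genes expressed in liver, 4 at a limit of 1 FPKM, were 9 at 0.5 FPKM and 2 at 2 FPKM, and 4 to 5 with single libraries left out. The cause of these shifts was not tested.

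Equal replicate numbers in fat and liver deviated together with correlations of 0.0716 to 0.242, every one of 6 samples correlating best with its own number, but, although both tissues came from the same chickens, neither labels nor methods state that equal numbers are one chicken, so the numbers were not used to pair samples. HFD and ND samples of equal number had correlations of -0.150 to 0.0468 in fat and -0.0418 to 0.0640 in liver. A fit with the replicate number as a block called 25 HOX genes higher in fat, as did one with a block for each chicken, and 0 for diet in either tissue. The files give no depth, so values of 0.01 to 0.1 FPKM, of which many HOX genes in liver consist, lie near the last decimal of the files, and their precision is unknown.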
